A study of Mus musculus with 6 samples.

Results

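The fibroblast growth factor (FGF) genes of the mouse tailbud described here are 10 genes out of 54134 in the count table, taken by their symbols. They are the ligands Fgf3, Fgf4, Fgf8, Fgf17 and Fgf18, the receptor Fgfr1, the feedback inhibitors Spry2, Spry4 and Dusp6, and the Ets transcription factor Etv4. All 10 passed the filter on low counts, as did 12733 genes in all. The study raised the level of Nr6a1, an orphan nuclear receptor, in the tailbud at mid-gestation and measured polyadenylated RNA by sequencing. The 4 wildtype libraries came from embryos labelled wildtype. The 2 Cdx2P:Nr6a1 libraries came from transient transgenic embryos in which the Cdx2 promoter drove the coding sequence of the long Nr6a1 isoform. Both groups were of the C57BL/6 strain at E10.5, and the tissue was everything caudal to the last somite. No stable line existed, so each transgenic embryo may carry its own integration, and these data do not show which cells made the extra Nr6a1.

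FGFs are secreted proteins that bind receptor tyrosine kinases together with heparan sulfate and activate the RAS-ERK cascade inside the cell. In the tailbud and posterior presomitic mesoderm they keep cells immature, and the level of signal falls towards the last somite. ERK activity raises transcription of its own brakes, among them the Sprouty proteins and the ERK phosphatase Dusp6, and of Ets factors such as Etv4, so these transcripts are widely read as a record of FGF signal. Fgf8, Fgf17 and Fgf18 form one subfamily of closely related ligands, whereas Fgf3 and Fgf4 lie side by side on mouse chromosome 7.

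Library totals ran from 44073460 to 67183802 counts. Nr6a1, the gene that was targeted, had 3.91, 5.18, 5.53 and 6.89 CPM (counts scaled to the library total) in the wildtype libraries and 23.4 and 33.8 CPM in the Cdx2P:Nr6a1 libraries. Its log2 fold change was 2.41 (standard error, SE, 0.20 with adjusted p = 0.00132, edgeR's quasi-likelihood test). Reads of the transgene and of the endogenous gene were not told apart. The tailbud label fitted the markers: all 8 tailbud markers were tested, and T, the mesoderm factor Brachyury, stood at 1095 ± 93.8 CPM (SD, n = 4) in wildtype. The tailbud markers differed between the genotypes all the same: Cdx2 and Cyp26a1 were called higher and Hoxb13 lower, where 1.59% of all genes were called. The groups did not overlap for 5 of the 8, against 18.6% of all genes, and log2 fold changes ran from -1.54 to 0.73. Of 8 somite markers, 3 were under 1 CPM in every library. The summed level of the 8 neural tube markers was 38.8 to 45.9 CPM in wildtype and 53.8 to 72.3 CPM in Cdx2P:Nr6a1 tailbuds, with Sox1 and Sox3 called higher and Olig2 at 0 in every library. The summed level of the 8 presomitic mesoderm markers overlapped, at 1299 to 1600 CPM against 1232 to 1440 CPM, although 2 of them, Tbx6 and Dll3, were lower in both transgenic libraries than in all wildtype ones. The whole tailbud was lysed, so fewer cells that express a gene and less RNA per cell cannot be told apart.

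The region around the start of transcription is shown for the called ligands Fgf3 and Fgf18, for Fgf4 as the neighbour of Fgf3, and for Spry2 as the only one of the 5 matched genes with an AGGTCA match. Each run of 300 bases holds 250 bases before and 50 bases after the start, read 5′ to 3′ on the strand of the gene, from RefSeq on GRCm38.p6. Of the 10 genes, 5 were matched in that table (the 4 below and Dusp6). Both strands were searched for AGGTCA, the hexamer that Nr6a1 binds as a direct repeat, for the direct repeat itself (AGGTCAAGGTCA), for the Ets core CCGGAA, and for CTTTGA and TATATA, letters of Wnt-responsive and TATA elements that were added after the sequences had been seen. Capitals mark every match.
Fgf3, chr7:144838362-144838661, plus strand: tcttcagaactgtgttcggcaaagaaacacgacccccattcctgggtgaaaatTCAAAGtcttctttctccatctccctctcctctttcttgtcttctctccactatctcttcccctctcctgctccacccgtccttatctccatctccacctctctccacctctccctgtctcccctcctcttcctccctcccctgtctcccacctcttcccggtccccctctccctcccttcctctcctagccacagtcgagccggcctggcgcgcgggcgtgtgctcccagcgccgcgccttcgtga
Fgf4, chr7:144861136-144861435, plus strand: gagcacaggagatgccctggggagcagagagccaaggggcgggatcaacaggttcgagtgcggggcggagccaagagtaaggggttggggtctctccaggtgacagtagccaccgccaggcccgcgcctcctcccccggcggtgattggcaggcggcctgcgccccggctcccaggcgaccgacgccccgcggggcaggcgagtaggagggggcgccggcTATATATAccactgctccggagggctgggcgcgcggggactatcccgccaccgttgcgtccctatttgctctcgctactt
Fgf18, chr11:33147351-33147650, minus strand: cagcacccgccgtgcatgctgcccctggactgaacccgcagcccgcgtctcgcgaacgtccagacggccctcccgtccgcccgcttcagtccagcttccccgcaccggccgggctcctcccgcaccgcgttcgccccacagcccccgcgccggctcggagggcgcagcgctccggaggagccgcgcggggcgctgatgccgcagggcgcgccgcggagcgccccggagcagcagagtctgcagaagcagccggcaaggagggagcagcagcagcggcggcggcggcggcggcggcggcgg
Spry2, chr14:105896770-105897069, minus strand: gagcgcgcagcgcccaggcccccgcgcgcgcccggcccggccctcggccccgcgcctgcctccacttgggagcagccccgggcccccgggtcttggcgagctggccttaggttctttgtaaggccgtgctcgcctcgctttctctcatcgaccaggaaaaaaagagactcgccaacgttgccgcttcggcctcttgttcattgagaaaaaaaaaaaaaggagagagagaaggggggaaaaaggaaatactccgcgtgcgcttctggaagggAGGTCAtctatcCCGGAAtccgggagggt

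In Spry2, AGGTCA began at base 272 of the printed run and CCGGAA at base 284, both after the start of transcription. AGGTCA was present in 16.3% and CCGGAA in 14.9% of the 32851 promoters of the same length, and the direct repeat in 2 of them. Neither was found in the Fgf3, Fgf4, Fgf18 or Dusp6 window. Fgf3 held CTTTGA on the minus strand, printed as TCAAAG from base 54, a match held by 5257 of all promoters. Fgf4 held 2 overlapping TATATA matches from base 221, a motif present in 5.67% of all promoters. The Fgf18 window had none of these letters and was 78.7% G and C, against a median of 52.7% over all promoters. The gene models of the count table start further upstream than RefSeq for Fgf3 and Fgf4, so these windows lie inside the counted gene bodies.

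The 10 genes differed widely in level in wildtype tailbuds. Per kilobase of exon (RPKM, CPM divided by the exon length), Fgf17 was the highest at 148 ± 8.38 RPKM (SD, n = 4), followed by Dusp6 at 120.4 ± 12.4 RPKM and Etv4 at 79.3 ± 3.46 RPKM. Each of these ranges was separate from the next. Fgf8 and Fgf3 followed at 60.3 ± 9.86 and 56.5 ± 2.85 RPKM, with overlapping ranges. Fgfr1, Spry2 and Spry4 lay together at 34.1 ± 1.06, 32.9 ± 3.26 and 30.8 ± 6.22 RPKM, and their neighbouring ranges overlapped too. Fgf4 at 10.7 ± 1.65 RPKM and Fgf18 at 3.84 ± 0.61 RPKM were the lowest, apart from each other and from the rest. Thus Fgf17 was the most abundant ligand transcript of the 5, and Fgf18 the least.

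**Figure D1:**
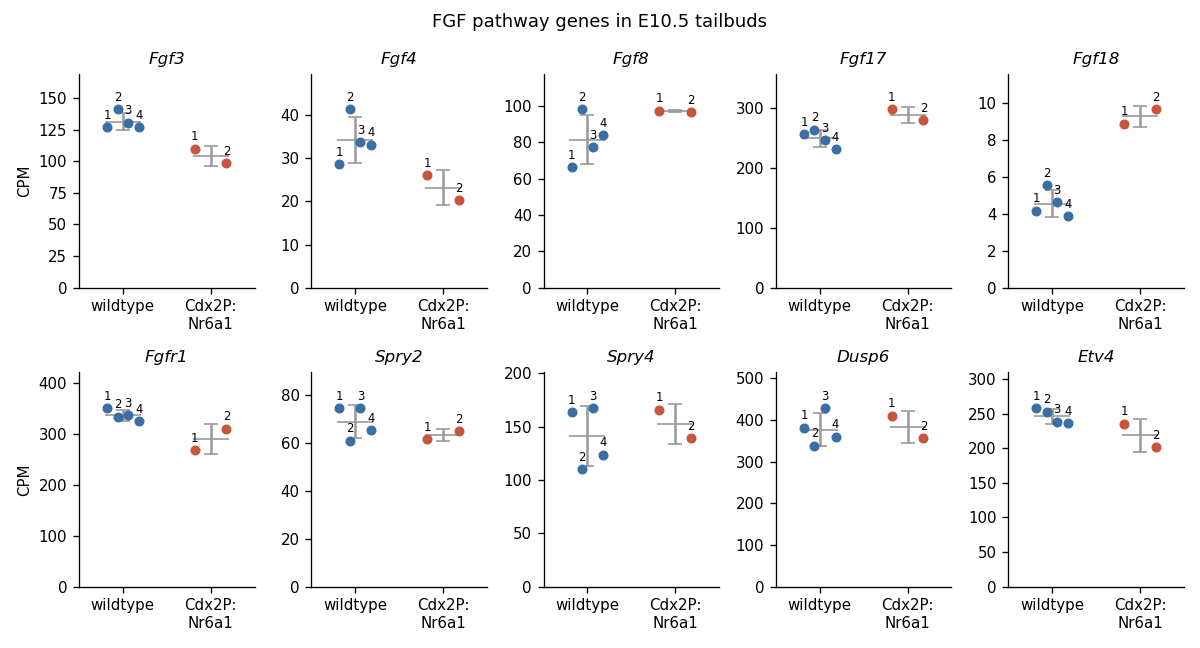
CPM (vertical axis, from 0) of the 10 genes in 4 wildtype and 2 Cdx2P:Nr6a1 tailbud libraries, numbered by replicate, with the mean and SD in grey. The transgenic libraries lie above all wildtype libraries for Fgf17 and Fgf18, below them for Fgf3, Fgf4, Fgfr1 and Etv4, and among them for the other 4 genes.

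Between the genotypes, the ligands parted. Fgf18 was called higher and Fgf3 lower in Cdx2P:Nr6a1 tailbuds, and none of the feedback inhibitors was called. These 2 of 10 genes stand against 1.59% of all genes called (203 of 12733 at an adjusted p under 0.05), with 0.785% called higher and 0.809% called lower. In 6 of the 10, both transgenic libraries lay beyond all 4 wildtype libraries (2 higher, 4 lower), as they did in 18.6% of all genes. The same number, 6, had an unadjusted p under 0.05, as did 1342 of all genes. The median log2 fold change was -0.05 over the 10 genes, with 5 above and 5 below 0, and -0.00071 over all genes tested. The number called rose to 5 with DESeq2's Wald test (3.75% of all genes called), to 3 with the likelihood ratio test (3.15%) and to 6 without the filter on low counts (2.69% of 32579 genes).

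**Figure D2:**
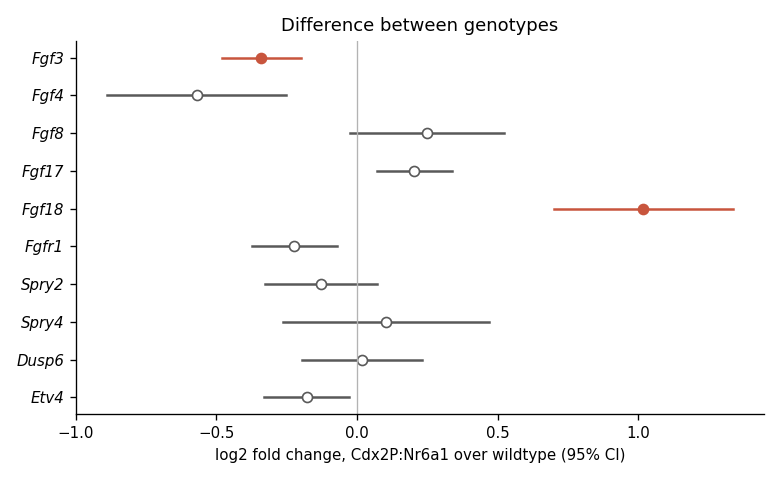
Log2 fold change of Cdx2P:Nr6a1 over wildtype (horizontal axis) with its 95% confidence interval for each of the 10 genes, filled where called by edgeR's quasi-likelihood test. Fgf18 at 1.02 is the farthest above 0 and Fgf4 at -0.57 the farthest below, while the intervals of Fgf8, Spry2, Spry4 and Dusp6 include 0.

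Fgf3 (chr7:144838083-144844436, plus strand, mm10) encodes a ligand of the primitive streak and tailbud whose loss in mice shortens the tail. It had 127, 141, 130.4 and 127 CPM in wildtype replicates 1 to 4, and 110.0 and 98.5 CPM in Cdx2P:Nr6a1 replicates 1 and 2. The groups did not overlap, and both transgenic libraries were below the lowest wildtype one. The log2 fold change was -0.34 (SE 0.06, adjusted p = 0.0313, edgeR's quasi-likelihood test), a level 0.789 times that of wildtype with a 95% confidence interval of 0.716 to 0.870. The direction held under the 11 alternatives without a replicate block, with log2 fold changes of -0.42 to -0.27, but the call was lost without wildtype replicate 2, 3 or 4 (adjusted p = 0.0590, 0.0548 and 0.0544, edgeR) and without transgenic replicate 1 or 2 (0.0683 and 0.232). Over the 11 alternatives the adjusted p lay between 1.65e-06 and 0.232.

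Fgf4 (chr7:144847367-144865243, plus strand) acts with Fgf8 to hold the presomitic mesoderm in its immature state. It had 28.6, 41.3, 33.7 and 33.2 CPM in wildtype and 26.0 and 20.3 CPM in Cdx2P:Nr6a1 tailbuds. Both transgenic libraries were again the lowest of the 6, though replicate 1 lay close to the lowest wildtype library. Its log2 fold change of -0.57 was the largest decrease among the 10 genes but did not pass the test (SE 0.14, adjusted p = 0.103, edgeR's quasi-likelihood test). The wildtype libraries themselves differed by up to 1.45 times, a spread on the log2 scale wider than in 90.6% of all genes. DESeq2's Wald test (adjusted p = 0.00132), the likelihood ratio test (0.0108) and the fit without the filter (5.91e-09) called it lower, within a range over the 11 alternatives of 5.91e-09 to 0.462.

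The next FGF gene on that chromosome moved in the same direction. Fgf15, which in the adult gut signals to the liver and in the embryo is best known from the brain, starts 31287 bases beyond Fgf4, and Fgf3 and Fgf4 themselves lie 2930 bases apart. Fgf15 had 55.3, 63.1, 57.5 and 52.4 CPM in wildtype and 37.7 and 38.3 CPM in Cdx2P:Nr6a1 tailbuds. The groups were well apart, with a log2 fold change of -0.59 (SE 0.07, adjusted p = 0.00658, edgeR's quasi-likelihood test). Fgf15 lost its call without transgenic replicate 1 or 2 (adjusted p = 0.0658 and 0.0622, edgeR), but kept its log2 fold change there (-0.58 and -0.61), and stayed called without any 1 wildtype library. Within 500 kb of Fgf3 and Fgf4 the table listed 26 genes, of which 13 were tested. Fgf3, Fgf15 and the predicted gene Gm26793 were called lower, 3 of 13 against 0.809% of all genes. The window was drawn around Fgf3, so that gene is among the 3 by construction. Gm26793 fell from 5.50 ± 0.34 CPM (SD, n = 4) to 3.41 ± 0.07 CPM (SD, n = 2) and lost its call without wildtype replicate 2, 3 or 4 or either transgenic library (adjusted p = 0.0544 to 0.161, edgeR). It lies on the opposite strand and shares 761 of its 2732 exon bases with Fgf15, so reads of the pair may not be separable. The other 10 tested genes did not pass the test. Among them, the cell cycle gene Ccnd1 had a log2 fold change of -0.11 (SE 0.05), the pore-forming channel gene Ano1 of -0.04 (0.17) and the actin regulator Cttn of 0.01 (0.04), while the synaptic scaffold gene Shank2 stood at 0.75 (0.19, adjusted p = 0.105, edgeR).

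**Figure D3:**
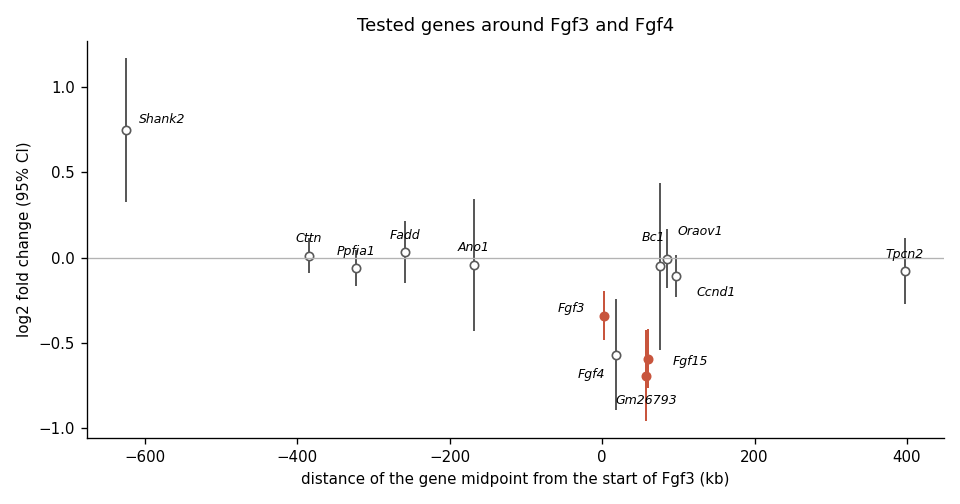
Log2 fold change with its 95% confidence interval (vertical axis) of the 13 tested genes around Fgf3 and Fgf4, placed by the distance of the gene midpoint from the start of Fgf3 in kb, filled where called. Fgf3, Fgf4, Gm26793 and Fgf15 lie together below -0.3, and the genes on either side of them lie near 0, except Shank2 at 0.75.

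The 3 ligands of the Fgf8 subfamily had fold changes above 0. Fgf18 (chr11:33117430-33147400, minus strand), best known from the growing skeleton and the lung, had 4.17, 5.55, 4.63 and 3.89 CPM in wildtype and 8.89 and 9.67 CPM in Cdx2P:Nr6a1 tailbuds. The groups were far apart, and the level was 2.03 times that of wildtype (95% confidence interval 1.63 to 2.52). Its log2 fold change of 1.02 passed the test (SE 0.14, adjusted p = 0.0114, edgeR's quasi-likelihood test). It rested on 175 to 310 reads per wildtype library and on 392 and 650 reads in the transgenic libraries. The call was lost without transgenic replicate 1 (adjusted p = 0.0612, edgeR) or 2 (0.109), and over the 11 alternatives the adjusted p ran from 1.82e-10 to 0.109 and the log2 fold change from 0.94 to 1.13. The summed level of the neural tube markers was also higher in both transgenic libraries. Among wildtype libraries, however, replicate 4 had the highest neural tube sum (45.9 CPM) and the lowest Fgf18. Log2 fold changes were also above 0 for 7 of 8 hindgut endoderm markers and 6 of 7 tested surface ectoderm markers. The part of any of these tissues in the Fgf18 result was not tested.

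Fgf17 (chr14:70636203-70642268, minus strand), a close relative of Fgf8 made in the tailbud, had 257, 264, 246 and 231 CPM in wildtype and 298 and 279 CPM in Cdx2P:Nr6a1 tailbuds. The transgenic libraries were the highest of the 6, by a narrow margin for replicate 2. The log2 fold change of 0.20 did not pass the test (SE 0.06, adjusted p = 0.173, edgeR's quasi-likelihood test), while DESeq2's Wald test called it (0.0439). Over the 11 alternatives the adjusted p of Fgf17 ran from 0.0406 to 0.724. Fgf8 (chr19:45736798-45742915, minus strand), the ligand that forms the tailbud gradient, had 66.2, 98.1, 77.4 and 83.9 CPM in wildtype and 97.3 and 96.7 CPM in Cdx2P:Nr6a1 tailbuds. Here the groups overlapped, since wildtype replicate 2 was the highest of all, and the transgenic pair lay above the other 3. Its log2 fold change was 0.25 with a 95% confidence interval of -0.03 to 0.52 (adjusted p = 0.544, edgeR's quasi-likelihood test). Leaving wildtype replicate 2 out gave a log2 fold change of 0.35, which was not called either, whereas the fit without the filter called Fgf8 higher (adjusted p = 0.00249, edgeR), in a range of 0.00249 to 0.946 over the 11 alternatives.

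In the make-up of the ligand transcripts, which does not depend on how libraries are scaled, Fgf3 and Fgf4 had smaller shares in both transgenic libraries than in any wildtype one, a difference that this design is too small to call. The summed level of the 5 ligands was 279 ± 19.0 RPKM in wildtype (SD, n = 4) and 303 ± 12.5 RPKM in Cdx2P:Nr6a1 tailbuds (SD, n = 2), a difference within the spread (exact permutation test, two-sided, p = 0.333). Fgf3 took 20.4%, 19.7%, 20.5% and 20.4% of that sum in wildtype and 15.2% and 14.4% in Cdx2P:Nr6a1 tailbuds. Fgf4 took 3.34% to 4.21% in wildtype against 2.62% and 2.17%, and Fgf18 1.23% to 1.52% against 2.40% and 2.77%. These 3 shares were without overlap between the groups. Each gave p = 0.0667 in a two-sided exact permutation test, the smallest that 15 arrangements of 4 and 2 libraries allow, and 0.111 after Benjamini-Hochberg adjustment over the 5 ligands. The shares of Fgf17 (53.0% ± 2.65 against 56.5% ± 0.26) and Fgf8 (21.5% ± 2.46 against 23.8% ± 0.86) overlapped (p = 0.267 and 0.400, exact permutation test). Together, Fgf8, Fgf17 and Fgf18 made up 75.7% to 76.3% of the sum in the wildtype libraries and 82.2% and 83.4% in the transgenic ones, a grouping by subfamily given as a description with no test.

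**Figure D4:**
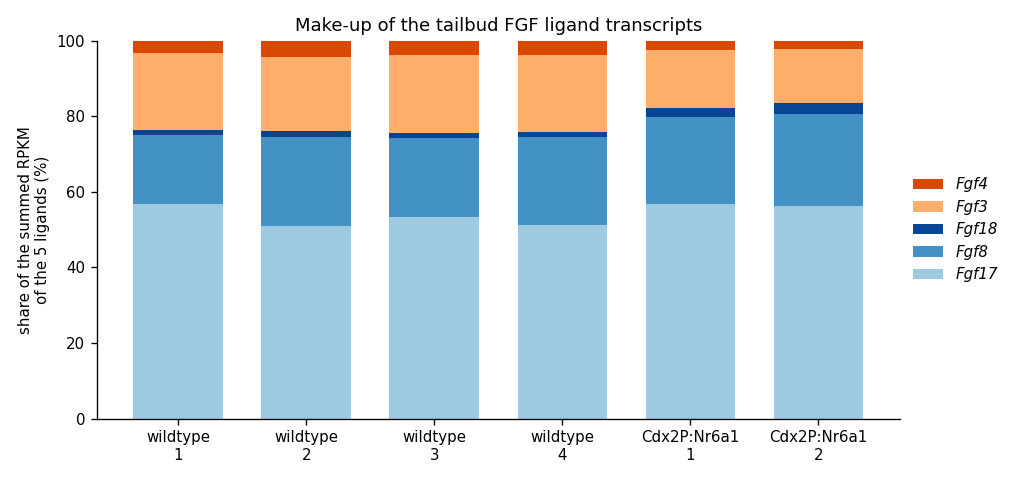
Share (vertical axis, percent) of each ligand in the summed RPKM of Fgf3, Fgf4, Fgf8, Fgf17 and Fgf18 in each library, with the Fgf8 subfamily in blue and Fgf3 and Fgf4 in orange. The blue part is 75.7% to 76.3% in the 4 wildtype libraries, and 82.2% and 83.4% in the 2 Cdx2P:Nr6a1 libraries.

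The receptor gene Fgfr1 (chr8:25513654-25575718, plus strand), which is needed for mesoderm to form at gastrulation, had 351, 334, 337 and 326 CPM in wildtype and 269 and 311 CPM in Cdx2P:Nr6a1 tailbuds. The transgenic libraries were the lowest of the 6 and differed from each other more than the wildtype libraries did. The log2 fold change was -0.22 and did not pass the test (SE 0.07, adjusted p = 0.188, edgeR's quasi-likelihood test). DESeq2's Wald test (0.0269) and the fit without the filter (0.0194) called it, in a range of 0.0194 to 0.836 over the 11 alternatives. The predicted gene Gm16159 on the opposite strand shares 164 of the 9875 exon bases of Fgfr1. Of the other receptor genes, Fgfrl1, a receptor without a kinase domain, was the most abundant at 73.6 ± 3.46 CPM in wildtype and 74.3 ± 0.555 CPM in Cdx2P:Nr6a1 tailbuds. Fgfr2 went the other way from Fgfr1, with 49.4, 42.7, 52.2 and 58.1 CPM in wildtype and 60.9 and 64.3 CPM in Cdx2P:Nr6a1 tailbuds. Its log2 fold change of 0.30 did not pass the test (adjusted p = 0.267, edgeR). The fit without the filter and the one with a replicate block called it higher.

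The feedback inhibitors did not separate the genotypes. Dusp6 (chr10:99263231-99267489, plus strand), the cytoplasmic phosphatase that switches ERK off, had 382, 338, 429 and 360.0 CPM in wildtype and 411 and 356 CPM in Cdx2P:Nr6a1 tailbuds. Its log2 fold change was 0.02 with a 95% confidence interval of -0.20 to 0.23 (adjusted p = 0.978, edgeR's quasi-likelihood test), so a change beyond 0.873 or 1.17 times the wildtype level lay outside the interval. Spry2 (chr14:105891947-105896819, minus strand), a Sprouty inhibitor of receptor to RAS signalling, had 74.4, 60.9, 74.4 and 65.2 CPM in wildtype and 61.5 and 64.9 CPM in Cdx2P:Nr6a1 tailbuds. Both transgenic values lay within the wildtype range, with a log2 fold change of -0.13 and an interval of -0.33 to 0.07 (adjusted p = 0.752, edgeR). Spry4, a second Sprouty gene, had 163, 110.1, 167 and 124 CPM in wildtype and 166 and 139 CPM in Cdx2P:Nr6a1 tailbuds. The transgenic libraries were again among the wildtype ones. The log2 fold change was 0.10, and the wide interval of -0.26 to 0.47 would include changes from 0.833 to 1.38 times the wildtype level (adjusted p = 0.917, edgeR). The signs of the Dusp6 and Spry4 fold changes turned when single libraries were left out, so neither has a settled direction.

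Among the wildtype embryos the ligands and the inhibitors were not highest in the same libraries. All 5 ligands had their highest wildtype level in replicate 2, the highest replicate for 21.7% of all genes tested, while Spry2, Spry4 and Dusp6 had their lowest level there, as did 18.2% of all genes. Spry4 was more variable on the log2 scale across wildtype libraries than 95.6% of all genes, and its counting error was 1.17% against a spread of 20.2% of the mean. Several feedback inhibitors of FGF signalling rise and fall with the segmentation clock, the oscillator that times somite formation. Lfng, a Notch modifier and clock gene, had 241, 44.7, 120.3 and 47.0 CPM in wildtype and 224 and 66.3 CPM in the transgenic libraries. Dusp4, an ERK phosphatase named here after its values were seen, had 638, 296, 467 and 303 CPM in wildtype and 505 and 312 CPM in the transgenic libraries. Both were higher in wildtype replicates 1 and 3 and in transgenic replicate 1 than in the other 3 libraries, which was also the case for Spry4 and Dusp6. Spry2 did not share this order, with 61.5 CPM in transgenic replicate 1, below wildtype replicate 4 at 65.2 CPM. How many of all genes share it was not counted. The phase of the clock in each embryo is not in the labels, and its part in the spread of the inhibitors was not tested.

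Etv4 (chr11:101769742-101785371, minus strand), an Ets factor of the Pea3 group induced by ERK, had 258, 253, 239 and 236 CPM in wildtype and 235 and 202 CPM in Cdx2P:Nr6a1 tailbuds. The transgenic libraries were the lowest 2, but replicate 1 lay only just under wildtype replicate 4. The log2 fold change of -0.18 did not pass the test (SE 0.07, adjusted p = 0.341, edgeR) and lay between -0.29 and -0.08 under the alternatives. Its close relative Etv5 had 147 ± 6.64 CPM in wildtype and 142 ± 0.115 CPM in Cdx2P:Nr6a1 tailbuds, with a log2 fold change of -0.05. The 2 transgenic embryos also differed in Nr6a1 itself, replicate 2 having the higher level. Fgf3, Fgf4, Fgf18 and Etv4 lay farther from the wildtype mean in replicate 2, and Fgf8, Fgf17, Fgfr1, Spry2, Spry4 and Dusp6 in replicate 1. With 2 embryos no order can be tested.

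The rest of the pathway was read from 8 lists that hold 104 other genes, of which 84 were tested. Fgf15 was called lower and Cdx2 higher, and the other 82 tested genes did not pass edgeR's test. Over the 8 lists, 19 of 84 genes had an unadjusted p under 0.05, in 23 the groups did not overlap (12 higher, 11 lower), and DESeq2's Wald test called 8 (5 higher, 3 lower). Over all 12733 genes the same counts were 1342, 2369 (18.6%) and 477 (3.75%). The median log2 fold change was -0.01, with 36 above and 48 below 0. Of 13 other secreted FGF genes 4 were tested, and Fgf9, a ligand of many epithelia named after its values were seen, stood at 24.2 ± 1.67 CPM in wildtype and 28.9 ± 0.66 CPM in Cdx2P:Nr6a1 tailbuds (log2 fold change 0.25, adjusted p = 0.193, edgeR). The 22 tested genes of the adaptors and the RAS-ERK cascade had log2 fold changes from -0.13 to 0.07, the narrowest range of any list with more than 1 tested gene. Ptpn11, the phosphatase Shp2 that links receptors to RAS, was the most abundant of them, with 399 ± 4.55 CPM in wildtype and 382 ± 5.78 CPM in Cdx2P:Nr6a1 tailbuds. The 20 genes of heparan sulfate synthesis and core proteins ranged from -0.42 to 0.23, and Sulf2, which trims sulfate from heparan sulfate outside the cell, had 816 ± 28.8 CPM in wildtype and 741 ± 25.6 CPM in Cdx2P:Nr6a1 tailbuds (adjusted p = 0.308, edgeR). Its relative Sulf1 went the other way (log2 fold change 0.21, adjusted p = 0.167, edgeR). DESeq2's Wald test and the fit without the filter called Sulf1 higher.

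Of the 15 tested genes in the list of other feedback inhibitors, 8 had log2 fold changes above 0 and 7 below. Il17rd (Sef), which holds back FGF receptor signalling, was the most abundant at 438 ± 31.9 CPM in wildtype and 469 ± 42.3 CPM in Cdx2P:Nr6a1 tailbuds, with overlapping groups. Over all genes tested the groups did not overlap in 18.6%, and 1342 of 12733 had an unadjusted p under 0.05. In this list the groups did not overlap for 5 of the 15 (2 higher, 3 lower), and 5 had an unadjusted p under 0.05. Among these, named after their values were seen, the ERK phosphatase gene Dusp9 stood at 106 ± 8.80 CPM in wildtype and 80.9 ± 8.58 CPM in Cdx2P:Nr6a1 tailbuds (log2 fold change -0.40, adjusted p = 0.0678, edgeR), and the Sprouty gene Spry1 at 64.5 ± 3.66 and 76.5 ± 3.41 CPM (0.24, adjusted p = 0.129, edgeR). DESeq2's Wald test, the likelihood ratio test and the fit without the filter called both. Of the 11 tested genes in the list of other ERK-induced transcription factors, 8 lay above 0 and 3 below. Among presomitic mesoderm genes that depend on FGF, T had a log2 fold change of -0.18 (SE 0.09, adjusted p = 0.564, edgeR). Tbx6 and Msgn1, factors that set presomitic mesoderm fate, had log2 fold changes of -0.26 and -0.43 (adjusted p = 0.107 and 0.392, edgeR). DESeq2's Wald test, the likelihood ratio test and the fit without the filter called Tbx6 lower, and the fit without the filter called Msgn1 lower. All of these fits called Cdx4, a relative of Cdx2 among the pathway genes, higher (log2 fold change 0.34, adjusted p = 0.000877, DESeq2's Wald test). The fold changes of Tbx6 and Msgn1 had the sign of those of Fgf3 and Fgf4, and their part in those results was not tested. The presomitic mesoderm markers as a list did not share that sign. Of the 7 tested, 4 had log2 fold changes above 0 and 3 below, with a median of 0.01. Cdx2, a caudal homeobox gene, had 303, 286, 296 and 295 CPM in wildtype and 410.0 and 347 CPM in Cdx2P:Nr6a1 tailbuds (log2 fold change 0.35, adjusted p = 0.0340, edgeR's quasi-likelihood test). That call was lost without transgenic replicate 1 (log2 fold change 0.23, adjusted p = 0.204, edgeR) and without any 1 wildtype library (0.0526 to 0.0929). The transgene uses the Cdx2 promoter, and whether construct sequence adds reads to Cdx2 was not tested.

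**Figure D5:**
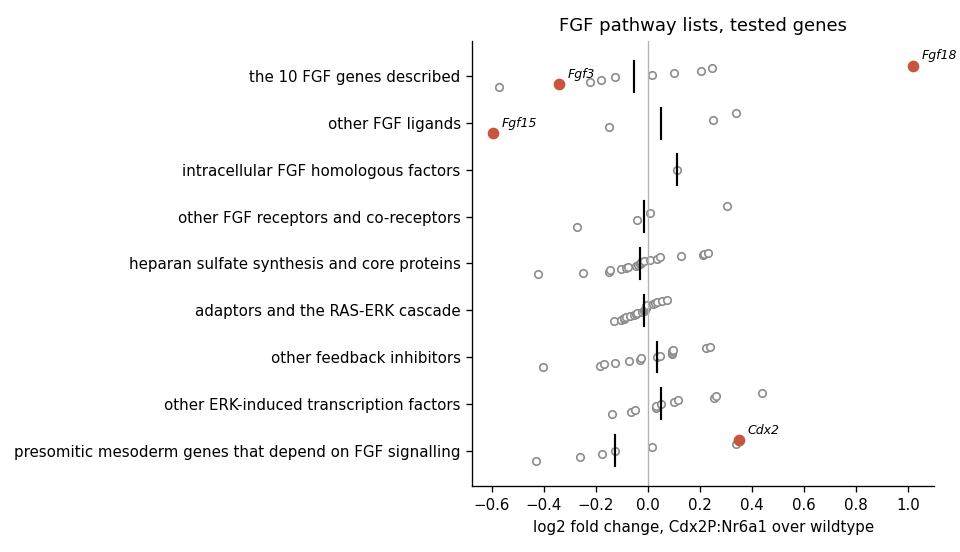
Log2 fold change of Cdx2P:Nr6a1 over wildtype (horizontal axis) for the 10 genes described and for the tested genes of the 8 other pathway lists, with filled points for called genes and a bar at each median. Fgf18 at 1.02 lies farthest from 0, and the RAS-ERK cascade genes lie between -0.13 and 0.07.

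The genes whose log2 CPM followed the called ligands most closely across the 6 libraries were taken by Pearson's r, a description in which the genotype difference takes part. For Fgf3 they were Edn3, an endothelin ligand (r = 0.998), Bcl2, an inhibitor of cell death (0.994), and Nid2, a basement membrane protein (0.990), none of which was called. Edn3 had 8.58, 10.01, 8.83 and 8.45 CPM in wildtype and 6.83 and 5.97 CPM in Cdx2P:Nr6a1 tailbuds, the same order of libraries at the extremes as Fgf3. For Fgf18 they were Enc1, an actin-binding protein of neural tissue (r = 0.994), Gal, the neuropeptide galanin (0.994), and Slain1, a microtubule-associated protein (0.993). Enc1 and Gal were called higher, with log2 fold changes of 0.46 and 2.23. Gal had 0.24 to 0.72 CPM in wildtype and 2.13 and 2.53 CPM in Cdx2P:Nr6a1 tailbuds. It therefore passed the filter of a CPM over 2 only through the transgenic libraries. With 6 libraries such values are common: 170 genes had r above 0.9 with Fgf3 and 225 with Fgf18.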

How the data were processed

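Tailbud RNA of 6 embryos (4 wildtype, 2 Cdx2P:Nr6a1) was sequenced as 1 library per embryo from a stranded polyA kit. The authors deposited raw read counts per gene, made from reads aligned to mm10 with STAR, per the submitters' processing notes. The version, the counter and its strand setting are not given in the sources used here. The table also gives the exon length of each gene in bases, an other quantity deposited beside the counts. A second file holds the authors' own fold changes and p-values for genes they called and was not used.

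CPM was each count divided by the library total. The filter kept genes that had more than 10 counts and a CPM over 2 in 2 or more libraries. Genotypes were compared with edgeR (4.0.16) after TMM normalization (factors 0.992 to 1.01), with its quasi-likelihood test and Benjamini-Hochberg adjustment over all 12733 genes, called under 0.05. The biological coefficient of variation was 9.40%. Shares of ligands were compared with exact permutation tests. Alternatives were other normalizations, DESeq2 (1.42.0), a likelihood ratio test, no filter, a replicate block and leaving out each library. The code was tested on simulated data. Genes outside the 10 were named by rule: the called genes or otherwise the most abundant tested gene of each pathway list, tested genes within 500 kb of Fgf3 and Fgf4, the 3 genes most correlated with each called gene, and markers whose level or call is given. Outside this rule, Dusp4, Dusp9, Spry1, Fgf9, Fgfr2, Sulf1, Cdx4, Tbx6, Msgn1 and Dll3 were added after their values were seen. The genes and lists were chosen with earlier results of these data known. Nothing says that embryos of one genotype came from separate litters, so p-values measure the spread between these 6 embryos. Gene ends in the table equalled those of GENCODE M21 (GRCm38) for 9 of the 10 genes.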

Additional observations from a re-analysis of the deposited data

Results flagged for a closer look

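Of 17 sets of 4 wildtype values examined (the CPM of the 10 genes, Nr6a1 and Fgf15, and the shares of the 5 ligands), 1 held a value far from the rest. The share of Fgf3 in the summed ligand level was 19.74% in wildtype replicate 2 and 20.4% to 20.5% in the other 3 libraries, so that the gap was 0.871 of the whole range. The rule marks about 1 set in 20 by chance. The Cdx2P:Nr6a1 libraries, at 15.2% and 14.4%, lay well below it.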

How the results depend on the processing

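The fold changes of Fgf3, Fgf4, Fgf8, Fgf17, Fgf18, Fgfr1, Spry2 and Etv4 kept their direction under all 12 alternatives. Of the 120 comparisons of the 10 genes with an alternative, 99 kept the direction and the side of the threshold, 9 newly passed it, 7 lost it and 5 turned sign. With 1 library left out, the log2 fold change of Spry4 ran from -0.0238 to 0.220 (below 0 without wildtype replicate 2 or transgenic replicate 1), and that of Dusp6 from -0.0830 to 0.113 (below 0 without wildtype replicate 2 or 4 or transgenic replicate 1). The number called among the 10 genes was 5 with DESeq2 and 6 without the filter, and 0 to 2 with 1 library left out. Among the other pathway genes it was 8 with DESeq2, 7 with the likelihood ratio test, 13 without the filter and 0 to 3 with 1 library left out. Over all genes it was 477, 401 and 876 under the same alternatives, and 61 to 175 with 1 library left out. A transgenic library left out leaves 1, which is then assumed to vary like the wildtype ones. Labels number the first 2 libraries of each group alike without saying that the numbers pair embryos, and they were not taken to do so. Deviations of same-numbered libraries correlated at 0.20 and -0.15. The deviations of the 2 transgenic libraries from their own mean are mirror images, so these values cannot decide whether embryos were paired. With the replicate block on these 4 libraries, 3 of the 10 genes (Fgf3, Fgf4 and Fgf18), 7 other pathway genes and 417 genes in all were called, against 0 and 105 for the same libraries without it, a fit added after seeing the data. The cause of these shifts was not tested. With 2 transgenic embryos, modest changes such as those of Fgf17, Fgfr1 and Etv4 lie near what the spread lets through.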
